A study of Mus musculus with 16 samples.

Results

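The chemokine system of the mouse aorta was read from 66 rows of the deposited gene tables, out of 54532 genes measured. A gene was a member if it was protein coding and bore the symbol of a chemokine (Ccl, Cxcl, Cx3cl or Xcl with a number) or of a chemokine receptor (Ccr, Cxcr, Cx3cr, Xcr or Ackr with a number). The 66 rows held 60 symbols, 44 rows for ligands and 22 for receptors. The platelet chemokines Pf4 and Ppbp and the chemokine-like receptor Ccrl2 belong to the system by function but not by symbol, and are given apart.

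Chemokines are small secreted proteins that bind G protein-coupled receptors and guide leukocytes along a gradient. Ligands of the CC class mainly draw monocytes, macrophages, lymphocytes and eosinophils, while CXC ligands draw neutrophils, activated T cells or B cells according to the receptor they bind. Atypical receptors bind chemokines without the usual G protein signal, and take up, carry or store them. In the arterial wall, smooth muscle, endothelium, adventitial fibroblasts and resident macrophages are all known sources of chemokines.

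Aortas of male C57BL/6J mice were sequenced, 1 library per mouse and 4 mice in each of 4 groups, to ask which transcripts go with arterial medial calcification in kidney disease. Surgery was done at 12 weeks of age, and the diets began after 2 weeks of recovery and lasted 30 days by the labels, or 4 weeks by the study's methods. 5/6 Nx is the surgical removal of most of the kidney mass. 5/6 Nx-HPi-Lp mice had 5/6 Nx, and their diet held 2.5% protein with 2% phosphorus. 5/6 Nx-HPi-Hp mice had the same surgery and phosphorus but 18% protein. 5/6 Nx-LPi-Lp mice had the same surgery with 0.3% phosphorus and 2.5% protein. Sham mice kept their kidneys and ate the same diet as 5/6 Nx-HPi-Lp, so that no group here had both intact kidneys and a standard diet.

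Libraries held 13659525 to 57276915 counts, and the highest totals were in a pair of 5/6 Nx-HPi-Lp mice, numbers 2 and 3. Mitochondrially encoded genes took 4.18% to 6.34% of the counts in Sham and 9.5% to 29.0% in the groups with 5/6 Nx. Smooth muscle markers were present in all groups, with a summed level of 7876 to 9926 FPKM in Sham, 847 to 1955 in 5/6 Nx-HPi-Lp, 2185 to 8730 in 5/6 Nx-HPi-Hp and 2731 to 6554 in 5/6 Nx-LPi-Lp. All 6 of these markers fell in 5/6 Nx-HPi-Lp against Sham. In tissue RNA, fewer cells of a type and less RNA per cell cannot be told apart.

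Levels are FPKM, counts per kilobase of gene scaled to the size of the library, and each mean is given ± SD over 4 mice. Fold changes are on the log2 scale, ± SE, from edgeR's quasi-likelihood test on the counts, with p-values adjusted by the Benjamini-Hochberg method over all genes tested. A gene was called when its adjusted p was at most 0.05 and its log2 fold change at least 1 in size. Only calls are described as a rise or a fall. The p-values measure the spread between the mice of a group. The comparisons of 5/6 Nx-HPi-Lp with the other groups all use the same 4 mice on 1 side and are not independent of each other.

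In 5/6 Nx-HPi-Lp aortas a large share of the chemokine system was higher than in every other group. Against Sham, 41 members were tested and 24 were called higher, where 15% of all genes tested were called higher. The member called lower, Ccl27a, compares with 7.18% of all genes called lower. Against 5/6 Nx-HPi-Hp, 34 members were tested, 15 were called higher and 1 lower, with 5.01% and 3.11% of all genes. Against 5/6 Nx-LPi-Lp, 42 were tested, 20 were called higher and 1 lower, with 7.9% and 3.98% of all genes. Counts of called genes in the gene lists and marker sets below compare with these same shares. The median log2 fold change of the tested members was 2.01, 1.55 and 1.84 in these comparisons, and that of all genes lay between -0.02 and 0.01. The count against 5/6 Nx-HPi-Hp was the least firm: 8 members were called there without the deepest pair of 5/6 Nx-HPi-Lp libraries (mice 2 and 3), and 13 were then called against 5/6 Nx-LPi-Lp.

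Of the 66 members, 42 passed the filter on low counts in at least 1 of the 3 comparisons and 24 in none. A gene that is high in only 1 group can pass through that group. In all, 13 members were called higher in all 3 comparisons, 8 in exactly 2 and 4 in exactly 1. Of the 33 members tested in all 3 comparisons, these 13 compare with 3.96% of the 15676 genes tested in all 3 that were called higher in each. The 13 were the ligands Ccl2, Ccl7, Ccl8, Ccl6, Ccl9, Cxcl12, Cxcl13 and Cxcl16 and the receptors Ccr1, Ccr2, Cx3cr1, Cxcr4 and Ackr1. Ccl27a was called lower in all 3, as were 1.57% of these genes. Without the deepest pair of 5/6 Nx-HPi-Lp libraries, 6 of the 13 (Ccl6, Ccl9, Ccr1, Cxcl12, Cxcl13 and Cxcr4) were still called in all 3.

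**Figure D1:**
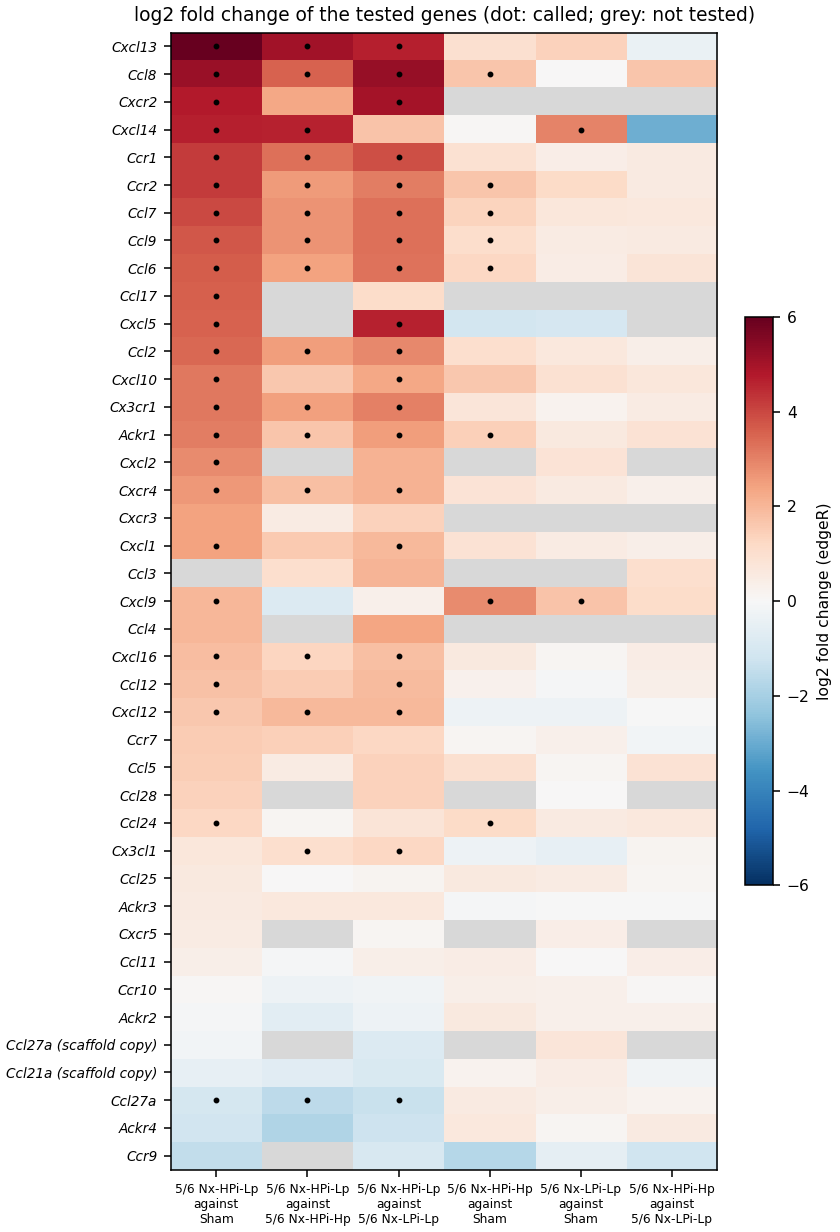
Heat map of the log2 fold change of chemokine and receptor genes, all but 1 of the 42 tested (rows), in 6 comparisons (columns). Black dots mark calls and grey cells genes that were not tested. Most dots lie in the first 3 columns, which compare 5/6 Nx-HPi-Lp with each other group, and the last column holds no call.

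Family totals moved the same way. The summed level of the 44 ligand rows was 234, 664, 514 and 388 FPKM in 5/6 Nx-HPi-Lp mice 1 to 4, and 71.2 to 80.5 in Sham. It was 87.7 to 142 in 5/6 Nx-HPi-Hp and 85.5 to 105 in 5/6 Nx-LPi-Lp, so that every 5/6 Nx-HPi-Lp mouse lay above every other mouse. The 22 receptor rows summed to 44.5 to 96.8 FPKM in 5/6 Nx-HPi-Lp, 20.9 to 28.8 in Sham, 26.4 to 36.3 in 5/6 Nx-HPi-Hp and 21.2 to 29.2 in 5/6 Nx-LPi-Lp. The members that led the list also differed. Cxcl12 (17.9 ± 2.62 FPKM), the decoy receptor Ackr3 (16.7 ± 3.91) and Ccl27a (10.8 ± 2.17) were highest in Sham. Ccl6 (86.7 ± 36.8), Ccl8 (61.5 ± 33.2) and Cxcl12 (56.3 ± 23.0) were highest in 5/6 Nx-HPi-Lp. The leading genes were Ccl6, Ackr3 and Ccl27a in 5/6 Nx-HPi-Hp, and Ackr3, Cxcl12 and Ccl27a in 5/6 Nx-LPi-Lp.

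Cxcl13, the ligand that draws B cells to follicles through Cxcr5, had the largest change of all members against Sham and 5/6 Nx-HPi-Hp. It lies on the plus strand of chromosome 5 from 95956951 to 95961068 (mm10). Mice of 5/6 Nx-HPi-Lp had 58.2, 47.8, 37.6 and 49.0 FPKM and the Sham mice 0.352, 0.582, 1.61 and 0.433. The 5/6 Nx-HPi-Hp mice had 1.39, 2.44, 0.61 and 1.38, and the 5/6 Nx-LPi-Lp mice 2.42, 1.39, 2.63 and 1.27. The group was far from all others with no overlap, and it was narrow. The log2 fold change was 6.01 ± 0.41 against Sham (adjusted p = 1.49e-05), 5.05 ± 0.35 against 5/6 Nx-HPi-Hp (adjusted p = 3.39e-04) and 4.65 ± 0.27 against 5/6 Nx-LPi-Lp (adjusted p = 2.04e-04). Its receptor Cxcr5 did not pass: it had 0 to 0.389 FPKM in 5/6 Nx-HPi-Lp and 0.0459 to 0.353 in Sham, with a log2 fold change of 0.51 ± 0.94 (adjusted p = 0.693). The 8 B and plasma cell markers summed to 21.0 to 328 FPKM in 5/6 Nx-HPi-Lp and 10.9 to 26.5 in Sham, with 4 called higher, and none was at 0 counts. The 328 was mouse 2, and the other 3 mice had 21.0 to 58.8. Of these markers, 0 of 8 were called against 5/6 Nx-HPi-Hp, at 32.5 to 111 FPKM, and 2 of 8 against 5/6 Nx-LPi-Lp, at 19 to 31.5. Of the lymph node stroma list, Clu was the highest and fell against Sham, while Madcam1 rose (4.30 ± 0.83, adjusted p = 0.00252). Madcam1 had 0.361 to 0.766 FPKM in 5/6 Nx-HPi-Lp, 0 to 0.0799 in Sham and 0 in both other groups with 5/6 Nx. It passed the count filter against Sham only through its counts in 5/6 Nx-HPi-Lp. Its fold change is thus taken from a level near the floor in Sham. Against the other groups with 5/6 Nx, Madcam1 was not tested. Ltb had 1.49 to 8.8 FPKM in 5/6 Nx-HPi-Lp and 1.11 to 3.81 in Sham. In the same order Cr2 had 0.0399 to 0.196 and 0.0106 to 0.0412, and Fcer2a 0 to 0.545 and 0.0619 to 0.309. Glycam1 had at most 0.135. The part of these cells in the Cxcl13 values was not tested.

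The RefSeq promoter of Cxcl13 (GRCm38.p6, the assembly behind mm10; chr5:95956689-95956988, plus strand) is shown because no other member rose as far against Sham. It holds the 250 bases before the annotated start and the 50 bases from the start on. Capitals mark a TATAAA match, which begins 46 bases before the start.
Cxcl13: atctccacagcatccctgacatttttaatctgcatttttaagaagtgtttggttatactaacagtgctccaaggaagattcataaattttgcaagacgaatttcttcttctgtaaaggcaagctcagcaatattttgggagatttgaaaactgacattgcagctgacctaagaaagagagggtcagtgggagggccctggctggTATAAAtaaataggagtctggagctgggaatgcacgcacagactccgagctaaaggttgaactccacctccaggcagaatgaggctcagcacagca
TATAAA was found on either strand in 14 of the 45 member symbols with a promoter in the table and in 15.7% of all 27025 symbols. None of the other motifs searched (NF-κB, AP-1, GAS and ISRE, below) had a match in this window.

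**Figure D2:**
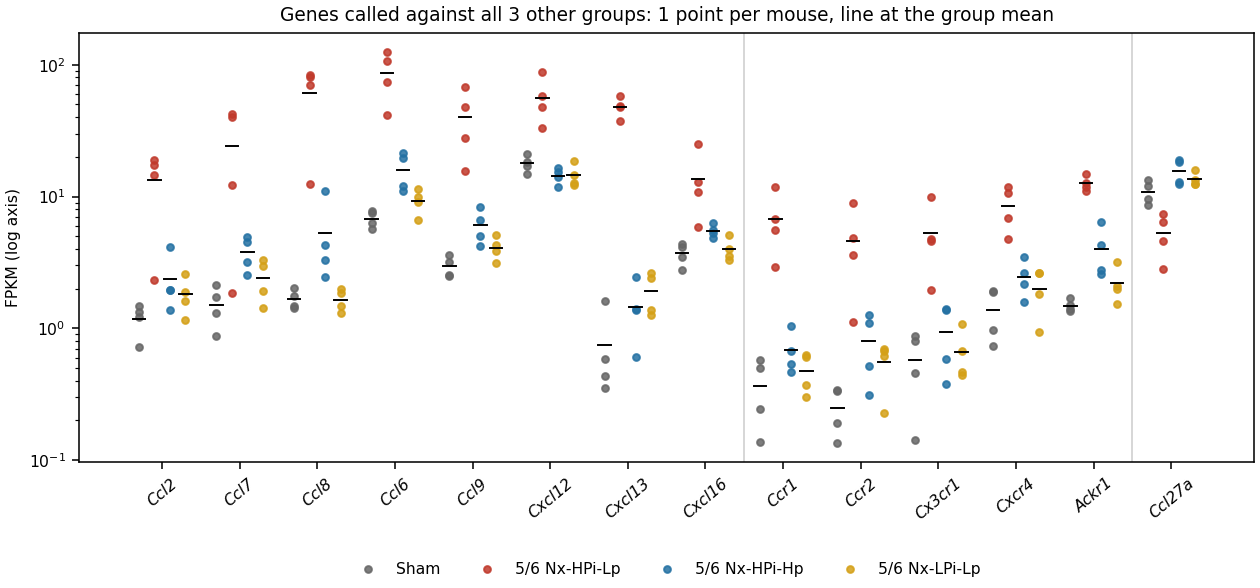
FPKM on a log axis of the 13 genes called higher and of Ccl27a, called lower, in 5/6 Nx-HPi-Lp against all 3 other groups. Each point is 1 mouse and each line the mean of 4 mice; the Cxcl13 points of 5/6 Nx-HPi-Lp lie between 37.6 and 58.2, and all other mice lie below 3.

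The CC ligands of monocytes and macrophages gave many of the calls. Of 9 such genes, 6 of 8 tested rose against Sham, 5 of 8 against 5/6 Nx-HPi-Hp and 6 of 9 against 5/6 Nx-LPi-Lp, with median log2 fold changes of 3.55, 2.46 and 2.88. Of all genes tested, 15%, 5.01% and 7.9% rose in the same comparisons. Ccl8, a ligand of Ccr8 in mice, had 12.5, 83.4, 80.3 and 69.8 FPKM in 5/6 Nx-HPi-Lp and 2.01, 1.47, 1.77 and 1.42 in Sham. The other groups had 11.1, 4.32, 2.44 and 3.32 (5/6 Nx-HPi-Hp) and 1.85, 2.00, 1.3 and 1.47 (5/6 Nx-LPi-Lp). Every 5/6 Nx-HPi-Lp mouse was above all others, although mouse 1 was close to the highest 5/6 Nx-HPi-Hp mouse. The log2 fold change was 5.17 ± 0.56 against Sham (adjusted p = 1.14e-04), 3.52 ± 0.64 against 5/6 Nx-HPi-Hp (0.00991) and 5.22 ± 0.59 against 5/6 Nx-LPi-Lp (0.0014). Without the deepest pair the call against 5/6 Nx-HPi-Hp was lost, at 2.93 with adjusted p = 0.0533.

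Ccl6 and Ccl9, both ligands of Ccr1 made by myeloid cells, rose in all 3 comparisons. Ccl6 had 41.2, 125, 106 and 74.3 FPKM in 5/6 Nx-HPi-Lp and 6.29, 7.71, 7.5 and 5.71 in Sham, against 21.6, 19.5, 12.1 and 11 in 5/6 Nx-HPi-Hp and 9.91, 11.4, 9.03 and 6.6 in 5/6 Nx-LPi-Lp. Ccl9 had 15.8, 68.2, 48.0 and 27.6 in 5/6 Nx-HPi-Lp and 2.5, 3.58, 3.21 and 2.55 in Sham, against 8.31, 6.69, 4.23 and 5.06 and 3.89, 5.11, 4.26 and 3.11 in the same order. For both genes the 5/6 Nx-HPi-Lp mice did not overlap with any other group, and mouse 1 was the lowest of them. The log2 fold changes against Sham were 3.64 ± 0.32 (adjusted p = 4.42e-05) and 3.72 ± 0.41 (1.23e-04). Against 5/6 Nx-HPi-Hp they were 2.43 ± 0.36 (0.00497) and 2.71 ± 0.42 (0.0056), and against 5/6 Nx-LPi-Lp 3.24 ± 0.34 (0.00112) and 3.30 ± 0.43 (0.00208). These calls held without the deepest pair. E230016K23Rik, on the opposite strand over Ccl6, had 0.184 to 0.506 FPKM in 5/6 Nx-HPi-Lp and 0 to 0.0594 in Sham.

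Ccl2, Ccl7 and Ccl12 are ligands of Ccr2, the receptor that brings inflammatory monocytes out of the marrow and into tissue. Ccl2 had 2.33, 17.3, 18.9 and 14.6 FPKM in 5/6 Nx-HPi-Lp and 1.32, 1.47, 0.719 and 1.21 in Sham, with 1.37 to 4.13 in 5/6 Nx-HPi-Hp and 1.17 to 2.58 in 5/6 Nx-LPi-Lp. Ccl7 had 1.86, 39.9, 42.6 and 12.2 in 5/6 Nx-HPi-Lp and 0.872, 1.3, 2.15 and 1.72 in Sham, with 2.52 to 4.93 and 1.43 to 3.29 in the other groups. Mice 2, 3 and 4 of 5/6 Nx-HPi-Lp were above all other mice for both genes. Mouse 1 lay above all Sham mice for Ccl2 and inside the Sham range for Ccl7, and for both genes below the highest mouse of each other group with 5/6 Nx. The log2 fold changes against Sham were 3.46 ± 0.57 for Ccl2 (adjusted p = 0.00106) and 3.98 ± 0.81 for Ccl7 (0.00337). Against 5/6 Nx-HPi-Hp they were 2.49 ± 0.59 (0.0258) and 2.67 ± 0.75 (0.0439), and against 5/6 Nx-LPi-Lp 2.88 ± 0.57 (0.0102) and 3.33 ± 0.81 (0.0207). The calls of both genes against 5/6 Nx-HPi-Hp and against 5/6 Nx-LPi-Lp were lost without the deepest pair, with values of 1.82 (adjusted p = 0.161) and 2.19 (0.0622) for Ccl2 and 0.88 (0.474) and 1.51 (0.181) for Ccl7. Single mice also decided these calls: against 5/6 Nx-HPi-Hp that of Ccl2 was lost without 5/6 Nx-HPi-Lp mouse 2, 3 or 4 or 5/6 Nx-HPi-Hp mouse 2 or 3 (adjusted p of 0.0558 to 0.0796) and that of Ccl7 without 5/6 Nx-HPi-Lp mouse 2, 3 or 4 or 5/6 Nx-HPi-Hp mouse 1, 2, 3 or 4 (adjusted p of 0.071 to 0.106). The Ccl7 call against 5/6 Nx-LPi-Lp was lost without 5/6 Nx-LPi-Lp mouse 2 or 3 (adjusted p of 0.0513 to 0.0615). Ccl12 rose against Sham (1.78 ± 0.46, adjusted p = 0.0116) and 5/6 Nx-LPi-Lp (1.89 ± 0.55, 0.039), from 2.33, 2.65, 3.21 and 1.71 FPKM in Sham to 4.21, 12.9, 13 and 4.1 in 5/6 Nx-HPi-Lp. Relative to 5/6 Nx-HPi-Hp, which had 1.26 to 4.77, its log2 fold change was 1.54 ± 0.55 (adjusted p = 0.0931). Both Ccl12 calls were lost without the deepest pair, at 0.72 (adjusted p = 0.155) and 0.80 (0.365), and the call against 5/6 Nx-LPi-Lp also without 5/6 Nx-HPi-Lp mouse 2 or 3 or 5/6 Nx-LPi-Lp mouse 1, 2, 3 or 4 (adjusted p of 0.0537 to 0.0911).

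Ccl3, Ccl4 and Ccl5, which draw monocytes and T cells, were not called. Ccl5 had 0.741, 3.13, 1.36 and 2.29 FPKM in 5/6 Nx-HPi-Lp and 0.804, 1.00, 0.538 and 0.319 in Sham (log2 fold change 1.47 ± 0.54, adjusted p = 0.0523). Ccl4 had 0.196, 5.56, 1.84 and 1.57 and 0.501, 0.253, 0.587 and 0.928 (2.00 ± 0.80, adjusted p = 0.069). Ccl3 had 1.1, 5.89, 0.346 and 1.61 and 0.384, 0.382, 0 and 0.45 and was tested only against the other groups with 5/6 Nx, where its adjusted p was 0.424 and 0.137. For all 3 genes the groups overlap, and mouse 2 of 5/6 Nx-HPi-Lp was the highest of the 16 mice.

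Receptors rose as well: of 18 signaling receptors, 6 of 11 tested rose against Sham, 4 of 9 against 5/6 Nx-HPi-Hp and 6 of 11 against 5/6 Nx-LPi-Lp. The shares of all genes tested that rose were 15%, 5.01% and 7.9% in the same order. The remaining receptors did not pass the count filter. Ccr2 had 1.12, 8.93, 4.83 and 3.6 FPKM in 5/6 Nx-HPi-Lp and 0.19, 0.34, 0.337 and 0.136 in Sham, with 1.26, 1.1, 0.519 and 0.314 in 5/6 Nx-HPi-Hp and 0.617, 0.669, 0.697 and 0.23 in 5/6 Nx-LPi-Lp. Mouse 1 of 5/6 Nx-HPi-Lp lay below the highest 5/6 Nx-HPi-Hp mouse and above all Sham and 5/6 Nx-LPi-Lp mice. Its log2 fold change was 4.18 ± 0.59 against Sham (adjusted p = 4.59e-04), 2.54 ± 0.61 against 5/6 Nx-HPi-Hp (0.0259) and 3.09 ± 0.59 against 5/6 Nx-LPi-Lp (0.00884). Without the deepest pair, the value against 5/6 Nx-HPi-Hp was 1.56 with adjusted p = 0.167. The call there was also lost without 5/6 Nx-HPi-Lp mouse 2, 3 or 4 or 5/6 Nx-HPi-Hp mouse 2 or 3 (adjusted p of 0.0539 to 0.0639).

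Ccr1, the receptor of Ccl6 and Ccl9 on myeloid cells, had 2.94, 11.8, 6.78 and 5.6 FPKM in 5/6 Nx-HPi-Lp and 0.246, 0.575, 0.137 and 0.5 in Sham, with 1.04, 0.539, 0.468 and 0.674 in 5/6 Nx-HPi-Hp and 0.373, 0.608, 0.624 and 0.299 in 5/6 Nx-LPi-Lp. No mouse of another group reached the lowest 5/6 Nx-HPi-Lp mouse. The log2 fold changes were 4.19 ± 0.53, 3.30 ± 0.45 and 3.86 ± 0.46 against Sham, against 5/6 Nx-HPi-Hp and against 5/6 Nx-LPi-Lp, with adjusted p of 2.35e-04, 0.00393 and 0.00172.

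Cx3cr1, a receptor of resident macrophages and patrolling monocytes, had 1.94, 9.86, 4.79 and 4.61 FPKM in 5/6 Nx-HPi-Lp and 0.881, 0.807, 0.143 and 0.459 in Sham, with 1.37, 0.584, 0.381 and 1.39 in 5/6 Nx-HPi-Hp and 0.469, 1.08, 0.441 and 0.668 in 5/6 Nx-LPi-Lp. The groups did not overlap, and the log2 fold change was 3.17 ± 0.58, 2.48 ± 0.54 and 3.01 ± 0.50 in the 3 comparisons (adjusted p = 0.00197, 0.0188 and 0.00486). The call against 5/6 Nx-HPi-Hp was lost without the deepest pair (1.77, adjusted p = 0.111) and without 5/6 Nx-HPi-Hp mouse 2 (adjusted p = 0.0648). The annotated span of Cx3cr1 overlaps several genes, among them Xirp1 on the same strand, at 16.5 ± 4.21 FPKM in Sham and 5.1 ± 2.00 in 5/6 Nx-HPi-Lp, and Wdr48 on the opposite strand, at 3.75 ± 0.235 and 2.52 ± 0.182. Its ligand Cx3cl1, a membrane-bound chemokine of endothelium, changed less, with 6.37, 11, 11.5 and 7.5 FPKM in 5/6 Nx-HPi-Lp, 4.37 to 7.17 in Sham, 3.15 to 6.89 in 5/6 Nx-HPi-Hp and 2.46 to 5.15 in 5/6 Nx-LPi-Lp. Cx3cl1 rose against both other groups with 5/6 Nx (1.03 ± 0.30, adjusted p = 0.0469, and 1.23 ± 0.27, 0.0139), and both calls were lost without the deepest pair (0.62, 0.332, and 0.81, 0.0928). The first was lost as well without 5/6 Nx-HPi-Lp mouse 2, 3 or 4 or 5/6 Nx-HPi-Hp mouse 1, 2 or 3 (adjusted p of 0.0877 to 0.132). Against Sham it had 0.68 ± 0.22, under the fold limit. Cxcl16, a membrane-bound ligand of Cxcr6 that also binds oxidized lipoproteins, had 5.91, 25, 13 and 10.8 in 5/6 Nx-HPi-Lp and 4.16, 4.4, 3.48 and 2.76 in Sham, with 6.27, 5.31, 4.88 and 5.55 in 5/6 Nx-HPi-Hp and 3.3, 5.09, 3.54 and 4.00 in 5/6 Nx-LPi-Lp. Mouse 1 lay within the 5/6 Nx-HPi-Hp range and above the other groups. Its log2 fold changes were 1.86 ± 0.37, 1.31 ± 0.36 and 1.79 ± 0.39 (adjusted p = 0.00315, 0.0408 and 0.0139), and without the deepest pair the value against 5/6 Nx-HPi-Hp was 0.59 with adjusted p = 0.254. That call was lost too without 5/6 Nx-HPi-Lp mouse 2, 3 or 4 or 5/6 Nx-HPi-Hp mouse 1, 2, 3 or 4 (adjusted p of 0.0617 to 0.11). Zmynd15, which overlaps Cxcl16 on the opposite strand, had 2.85 to 5.41 FPKM in 5/6 Nx-HPi-Lp and 1.31 to 1.53 in Sham. Cxcr6 was too low to be tested, at no more than 0.44 FPKM in any mouse.

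Macrophage markers moved with these genes. Of 12 macrophage and monocyte markers outside the chemokine families, all of them tested, 11 rose in 5/6 Nx-HPi-Lp against Sham, 10 against 5/6 Nx-HPi-Hp and 11 against 5/6 Nx-LPi-Lp. Their summed level was 549, 1973, 1165 and 1042 FPKM in 5/6 Nx-HPi-Lp mice 1 to 4. It was 163 to 251 in Sham, 250.1 to 508 in 5/6 Nx-HPi-Hp and 163 to 294 in 5/6 Nx-LPi-Lp, and no marker was at 0 counts. The mean of this sum was 5.59 times that of Sham. By the same ratio of group means, Ccl6 was 12.7, Ccl9 13.5, Ccr2 18.4, Ccr1 18.6, Ccl8 36.9 and Cxcl13 64.7 times its Sham level, while Cxcl12 was 3.15 and Cxcl16 3.7 times. Relative to 5/6 Nx-HPi-Hp the marker sum was 3.18 times, Cxcl12 3.9 and Cxcl16 2.49. Relative to 5/6 Nx-LPi-Lp the ratios were 4.85, 3.88 and 3.44 in the same order. The part of macrophage number in these values was not tested.

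The 5/6 Nx-HPi-Lp mice also differed from each other in a recurrent way. Of the 25 members that rose in at least 1 of the 3 comparisons, mouse 1 was the lowest of the 4 for 20 and mouse 2 the highest for 18. Mouse 1 had the lowest and mouse 2 the highest macrophage marker sum. The same order held for the neutrophil, fibroblast, dendritic cell, lymphatic endothelium and lymph node stroma sums, and not for the other marker lists. The smooth muscle sum was highest in mouse 1, at 1955 FPKM, and 848 in mouse 2. Mouse 2 also had the deepest library, while mice 1 and 4 were sequenced to similar totals. With all libraries thinned to the lowest total, the same 13 genes were called higher in all 3 comparisons. Among the 13, Cxcl13 was highest in mouse 1, Cxcr4 in mouse 4, and Ccl2, Ccl7 and Ackr1 in mouse 3.

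**Figure D3:**
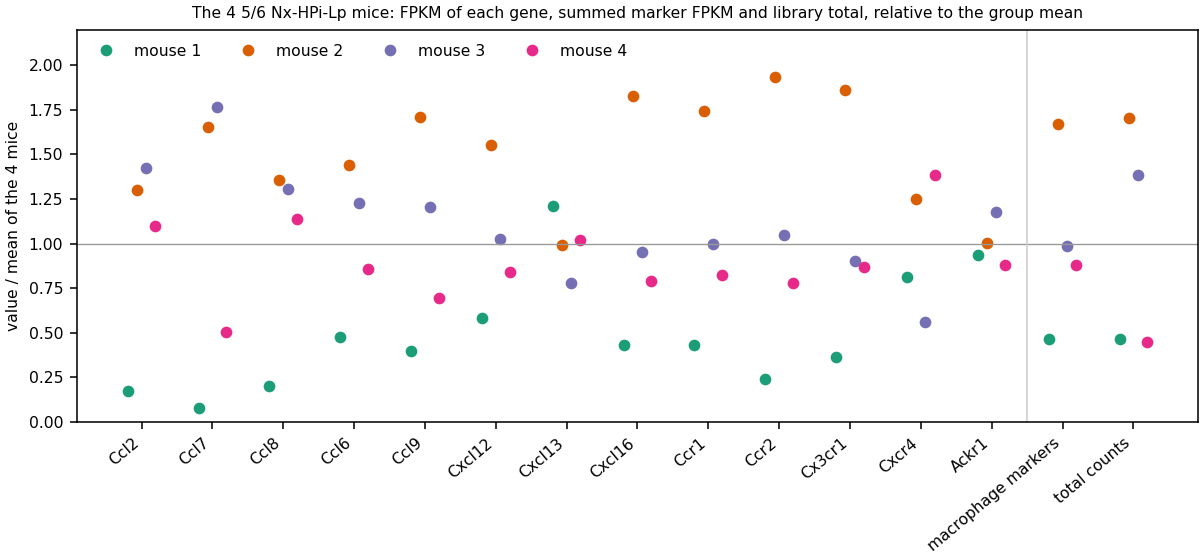
Values of the 4 5/6 Nx-HPi-Lp mice, each divided by the mean of the 4, for the 13 genes called higher in all 3 comparisons (FPKM), for the summed macrophage markers (FPKM) and for the library total (counts). Mouse 1 was the lowest for 10 of the 13 genes and mouse 2 the highest for 8, and the points of Cxcl13 and Ackr1 lie closest to 1.

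Cxcl12 and its receptor Cxcr4 rose together. Cxcl12, a stromal ligand that retains hematopoietic cells and guides repair, was well expressed in all groups, with 32.9, 87.3, 57.7 and 47.4 FPKM in 5/6 Nx-HPi-Lp and 21.2, 18.3, 17.2 and 14.9 in Sham. The 5/6 Nx-HPi-Hp mice had 16.5, 11.9, 15.3 and 14.0 and the 5/6 Nx-LPi-Lp mice 18.6, 12.6, 14.5 and 12.3. All 5/6 Nx-HPi-Lp mice were above all others, and the other groups lay close together. The log2 fold change was 1.62 ± 0.26 (adjusted p = 9.46e-04) against Sham and 1.96 ± 0.28 and 1.96 ± 0.29 against 5/6 Nx-HPi-Hp and against 5/6 Nx-LPi-Lp (0.00488 and 0.00352). Cxcr4 had 6.9, 10.6, 4.77 and 11.8 in 5/6 Nx-HPi-Lp, 0.732, 1.92, 0.976 and 1.88 in Sham, 2.16, 3.47, 2.63 and 1.59 in 5/6 Nx-HPi-Hp and 1.81, 2.61, 2.65 and 0.937 in 5/6 Nx-LPi-Lp, with no overlap. Its log2 fold changes were 2.60 ± 0.39, 1.80 ± 0.35 and 2.10 ± 0.39 (adjusted p = 6.74e-04, 0.0128 and 0.008). Fibroblast markers, 6 in number and all detected, summed to 595 to 2371 FPKM in 5/6 Nx-HPi-Lp and 344 to 553 in Sham, with 3 of 6 called higher. They were 246 to 532 in 5/6 Nx-HPi-Hp and 248 to 345 in 5/6 Nx-LPi-Lp, with 5 of 6 called higher against each, and their part in the Cxcl12 values was not tested.

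Cxcl14, a ligand of skin and stroma whose signaling receptor is not settled, had another pattern. Mice of 5/6 Nx-HPi-Lp had 17.8, 77.8, 35.8 and 25.3 FPKM and the 5/6 Nx-LPi-Lp mice 19.2, 3.52, 16.3 and 9.76. Sham mice had 0.825, 1.56, 1.63 and 2.14 and 5/6 Nx-HPi-Hp mice 1.84, 1.11, 2.65 and 0.872. Both 5/6 Nx groups on 2.5% protein lay above all mice of the other groups. Cxcl14 rose in 5/6 Nx-HPi-Lp against Sham (4.64 ± 0.49, adjusted p = 1.02e-04) and 5/6 Nx-HPi-Hp (4.60 ± 0.53, 0.00258), and in 5/6 Nx-LPi-Lp against Sham (2.99 ± 0.48, 0.00349). Against 5/6 Nx-LPi-Lp, 5/6 Nx-HPi-Lp had 1.69 ± 0.56 (adjusted p = 0.0606). Between the 5/6 Nx-HPi-Hp group and the 5/6 Nx-LPi-Lp group the log2 fold change was -2.92 ± 0.53, with adjusted p = 0.476 over all genes, although these groups did not overlap. DESeq2 called it there.

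Atypical receptors mostly did not pass. Of 4, Ackr1 rose in all 3 comparisons and Ackr2, Ackr3 and Ackr4 were called in none. Ackr1, the receptor by which venular endothelium and red cells bind many inflammatory chemokines, had 11.8, 12.6, 14.9 and 11.1 FPKM in 5/6 Nx-HPi-Lp and 1.49, 1.4, 1.68 and 1.36 in Sham, with 4.26, 2.6, 6.44 and 2.8 in 5/6 Nx-HPi-Hp and 3.17, 1.54, 1.99 and 2.11 in 5/6 Nx-LPi-Lp. The 5/6 Nx-HPi-Lp mice were tightly grouped above all others. The log2 fold changes were 3.06 ± 0.17, 1.65 ± 0.30 and 2.51 ± 0.25 (adjusted p = 1.22e-05, 0.00936 and 8.85e-04), and without the deepest pair the value against 5/6 Nx-HPi-Hp was 1.5 with adjusted p = 0.0617. The 6 endothelial markers summed to 170 to 212 FPKM in 5/6 Nx-HPi-Lp and 127 to 168 in Sham, with 2 of 6 called higher. None was called against 5/6 Nx-HPi-Hp (133 to 209 FPKM) or 5/6 Nx-LPi-Lp (136 to 184). The red cell and platelet list, which includes the chemokines Pf4 and Ppbp, was 308 to 477 FPKM in 5/6 Nx-HPi-Lp and 421 to 4300 in Sham, with 2 of its 6 markers called higher and 3 lower. In 5/6 Nx-HPi-Hp it was 234 to 1467 FPKM, and 1 of 6 markers was higher in 5/6 Nx-HPi-Lp. In 5/6 Nx-LPi-Lp it was 116 to 239 FPKM, with no overlap, and 5 of 6 markers were higher in 5/6 Nx-HPi-Lp. Cadm3, which overlaps Ackr1 on the same strand, was also higher, at 2.77 to 6.38 FPKM in 5/6 Nx-HPi-Lp and 0.676 to 1.07 in Sham, so reads of the shared part are uncertain. Ackr3, the scavenger of Cxcl12, had 14.6, 30.7, 23.5 and 31.0 in 5/6 Nx-HPi-Lp and 21.7, 17.6, 14.8 and 12.7 in Sham (0.55 ± 0.25, adjusted p = 0.0979). Ackr2, which degrades inflammatory CC ligands, had 0.9 ± 0.463 FPKM in 5/6 Nx-HPi-Lp and 0.903 ± 0.186 in Sham. Ackr4, the scavenger of Ccl19, Ccl21 and Ccl25, had 0.222 ± 0.106 and 0.495 ± 0.348 (-1.17 ± 0.61, adjusted p = 0.151), and its reads may include those of the overlapping Acad11.

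**Figure D4:**
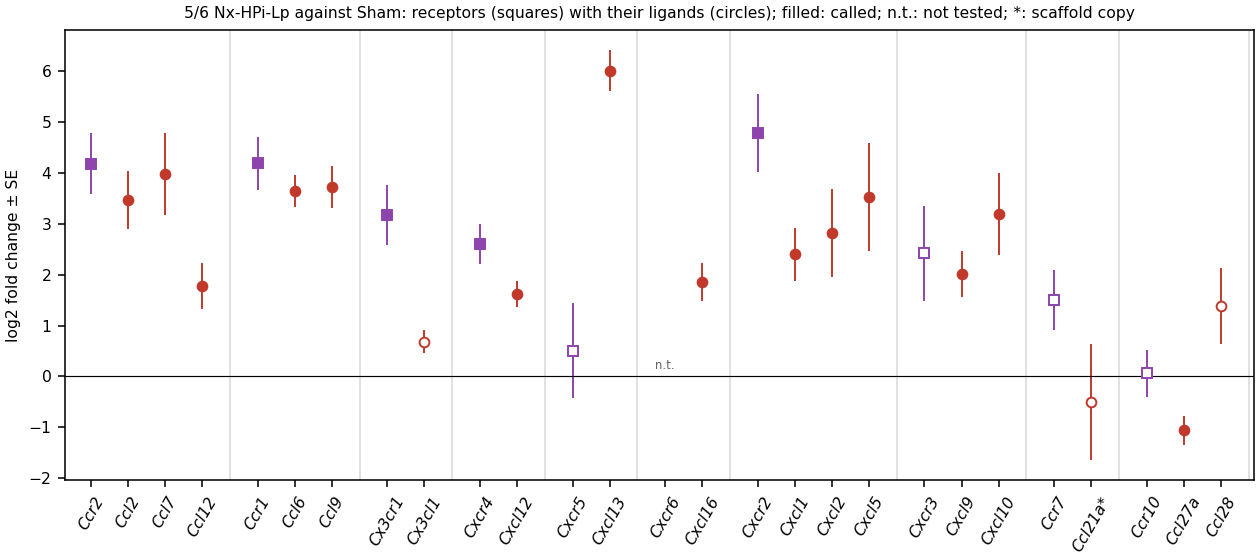
Log2 fold change ± SE of receptors (squares) and their ligands (circles) in 5/6 Nx-HPi-Lp against Sham, 4 mice a group, grouped by receptor. Filled symbols were called and open symbols were not. Ligands and receptor were filled together for Ccr2, Ccr1, Cxcr4 and Cxcr2, while Cxcl13 stands at 6.01 beside an open Cxcr5. Cxcr2 passed the count filter only through the 5/6 Nx-HPi-Lp mice.

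Neutrophil ligands and their receptor Cxcr2 were higher in 5/6 Nx-HPi-Lp than in Sham, with wide spread. Cxcl1, Cxcl2 and Cxcl5 rose against Sham, and Cxcl1 and Cxcl5 also against 5/6 Nx-LPi-Lp. Against 5/6 Nx-HPi-Hp only Cxcl1 passed the count filter, with 1.56 ± 0.63 (adjusted p = 0.127), and without the filter Cxcl5 was called there. Cxcl1 had 1.24, 8.44, 7.27 and 4.25 FPKM in 5/6 Nx-HPi-Lp and 0.784, 1.00, 0.734 and 1.43 in Sham (2.40 ± 0.52, adjusted p = 0.00468). Cxcl2 had 0.0313, 3.29, 1.52 and 1.25 and 0.213, 0.222, 0.229 and 0.185 (2.82 ± 0.86, 0.0238), and Cxcl5 0, 8.91, 3.81 and 1.77 and 0.316, 0.202, 0.37 and 0.349 (3.52 ± 1.06, 0.023). In all 3 genes mouse 1 of 5/6 Nx-HPi-Lp was within or below the Sham range and mouse 2 was the highest. The Cxcl2 and Cxcl5 calls against Sham were lost without the deepest pair (1.56, 0.196, and 1.49, 0.281), without any 1 Sham mouse and without 5/6 Nx-HPi-Lp mouse 2, with adjusted p of 0.0601 to 0.0751. The Cxcl1 call against 5/6 Nx-LPi-Lp was lost without any 1 mouse of either group other than 5/6 Nx-HPi-Lp mouse 1, with adjusted p of 0.0516 to 0.0886. Cxcl5 had 4.61 ± 1.35 against 5/6 Nx-LPi-Lp (adjusted p = 0.0396), a call lost without 5/6 Nx-HPi-Lp mouse 4 or 5/6 Nx-LPi-Lp mouse 1, 2, 3 or 4 (adjusted p of 0.0555 to 0.102). Cxcl3 was not tested: it had 0, 113, 107 and 4 counts in 5/6 Nx-HPi-Lp and 0 in all other 12 mice. DESeq2 and the fit without the count filter called it higher in all 3 comparisons. Its mean of 0.332 FPKM was at least 9.69-fold higher than the level that 3 counts per library would give in Sham. Cxcl15 was seen in mouse 2 of 5/6 Nx-HPi-Lp with 107 counts and nearly nowhere else.

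Cxcr2, the neutrophil receptor of these ligands, had 0.488, 0.834, 0.428 and 0.234 FPKM in 5/6 Nx-HPi-Lp and 0.0121, 0.0137, 0.0424 and 0 in Sham, and did not overlap. It was called against Sham (4.78 ± 0.77, adjusted p = 9.29e-04) and 5/6 Nx-LPi-Lp (4.99 ± 1.00, 0.0104), with only 1, 1, 3 and 0 and 3, 0, 0 and 0 counts in the mice of those groups. In both comparisons Cxcr2 passed the count filter only through the 5/6 Nx-HPi-Lp mice, where it was high. In 5/6 Nx-HPi-Hp mouse 1 alone had Cxcr2 counts (21), and the log2 fold change was 2.33 ± 1.23 (adjusted p = 0.228). The 8 neutrophil markers summed to 21.2 to 59.8 FPKM in 5/6 Nx-HPi-Lp, 1.58 to 9.5 in Sham, 1.4 to 8.25 in 5/6 Nx-HPi-Hp and 1.31 to 2.9 in 5/6 Nx-LPi-Lp. All 4 that were tested rose, while Ly6g was at 0 counts in all 5/6 Nx-HPi-Lp mice. Only 2 of the 8 passed the count filter in 5/6 Nx-HPi-Hp or 5/6 Nx-LPi-Lp against Sham. Not all of the 4 would thus have passed without the 5/6 Nx-HPi-Lp mice, where they were high. The part of these markers in the Cxcr2 values was not tested.

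The promoters of the neutrophil ligands are shown because Cxcl1, Cxcl2 and Cxcl3 lie in 1 cluster on chromosome 5, were all highest in mice 2 and 3 of 5/6 Nx-HPi-Lp, and share an NF-κB match. NF-κB is the main activator of inflammatory chemokine genes. Stretches of Cxcl10, Ccl9 and Ccr1, members with such a match that were called higher against Sham, follow for comparison. Ccl27a, which also has a match, was called lower and is not shown. Capitals mark NF-κB matches, searched on both strands, where overlapping matches on both strands run together. The stretches, 5′ to 3′ on the gene's strand, are from RefSeq promoters (GRCm38.p6) at chr5:90891134-90891224 (plus) for Cxcl1, chr5:90903762-90903852 (plus) for Cxcl2, chr5:90785988-90786078 (plus) for Cxcl3, chr5:92348943-92349088 (minus) for Cxcl10, chr11:83578622-83578711 (minus) for Ccl9 and chr9:123968717-123968806 (minus) for Ccr1.
Cxcl1: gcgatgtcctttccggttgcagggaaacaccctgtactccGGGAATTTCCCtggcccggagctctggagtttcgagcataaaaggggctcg
Cxcl2: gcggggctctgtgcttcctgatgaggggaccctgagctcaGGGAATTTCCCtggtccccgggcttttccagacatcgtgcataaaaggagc
Cxcl3: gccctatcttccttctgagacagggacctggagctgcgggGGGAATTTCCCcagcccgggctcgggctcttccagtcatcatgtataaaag
Cxcl10: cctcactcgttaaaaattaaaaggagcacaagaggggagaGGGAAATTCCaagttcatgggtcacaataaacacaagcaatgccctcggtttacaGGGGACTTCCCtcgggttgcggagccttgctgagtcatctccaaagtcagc
Ccl9: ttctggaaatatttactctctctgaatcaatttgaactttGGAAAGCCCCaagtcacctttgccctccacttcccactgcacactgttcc
Ccr1: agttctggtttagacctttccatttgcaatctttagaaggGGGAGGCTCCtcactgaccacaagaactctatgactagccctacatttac
The match began 71 bases before the start in Cxcl1, 97 in Cxcl2 and 73 in Cxcl3, and its letters were the same in all 3. An NF-κB match was present in 12 of the 45 member symbols with a promoter in the table and in 9.55% of all 27025 symbols. Of the 12, Cxcl1, Cxcl2, Cxcl10, Ccl9 and Ccr1 rose against Sham, Ccl27a fell, Ackr2 was not called, and Ccl1, Ccl20, Ccr3, Ccr6 and Cxcl3 were not tested. Both strands were searched for the other motifs as well. The AP-1 motif TGANTCA was found in 8 members and 8.97% of all symbols, the GAS motif TTCNNNGAA in 3 members and 9.55%, and the ISRE motif GAAANNGAAA in 3 members and 3.99%. GAS and ISRE both matched in Cxcl14. Among the genes called in all 3 comparisons, Ccl2, Ccl7 and Cxcl16 had no entry in the table.

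Interferon-inducible ligands of Cxcr3, the receptor of activated T and NK cells, split between the groups. Cxcl9 had 0.708, 2.34, 0.975 and 1.37 FPKM in 5/6 Nx-HPi-Lp, 0.305, 0.346, 0.471 and 0.19 in Sham, 2.48, 2.11, 4.6 and 0.352 in 5/6 Nx-HPi-Hp and 1.79, 0.845, 1.34 and 0.374 in 5/6 Nx-LPi-Lp. Its mean was highest in 5/6 Nx-HPi-Hp, and the groups with 5/6 Nx overlap. Cxcl9 rose against Sham in every group with 5/6 Nx, by 2.01 ± 0.44 in 5/6 Nx-HPi-Lp (adjusted p = 0.00516), 2.85 ± 0.63 in 5/6 Nx-HPi-Hp (0.0126) and 1.73 ± 0.47 in 5/6 Nx-LPi-Lp (0.0208). The last call was lost without Sham mouse 1, 2 or 4 or 5/6 Nx-LPi-Lp mouse 1, with adjusted p of 0.0551 to 0.0575. Cxcl10 had 0.574, 2.36, 1.6 and 1.58 in 5/6 Nx-HPi-Lp and 0.0326, 0.464, 0.134 and 0.034 in Sham, with no overlap. Cxcl10 rose against Sham (3.19 ± 0.80, 0.00996) and 5/6 Nx-LPi-Lp (2.32 ± 0.55, 0.019), and the second call was lost without the deepest pair (1.77, adjusted p = 0.112) and without 5/6 Nx-LPi-Lp mouse 3 (adjusted p = 0.056). Art3, which overlaps Cxcl10 on the opposite strand, had 8.47 to 22 FPKM in 5/6 Nx-HPi-Lp and 9.38 to 12.2 in Sham. Cxcr3 had 0, 1.55, 0.677 and 0.935 and 0.127, 0.0724, 0.249 and 0.133 (2.42 ± 0.93, adjusted p = 0.0603). The 11 T and NK cell markers summed to 5.3 to 19.9 FPKM in 5/6 Nx-HPi-Lp and 14.0 to 95.2 in Sham, with none called higher and 2 lower. Cxcl11 is annotated as a polymorphic pseudogene, is not a member, and had no more than 4 counts in any mouse.

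Among the ligands of eosinophils and type 2 cells, Ccl17 and Ccl24 rose against Sham and Ccl11 was not called. Ccl17, a Ccr4 ligand of dendritic cells, rose from 0.214, 0, 0.419 and 0.0744 FPKM in Sham to 1.13, 3.03, 2.93 and 1.89 in 5/6 Nx-HPi-Lp (3.61 ± 0.78, adjusted p = 0.00454), while 5/6 Nx-LPi-Lp had 0.143 to 2.23 (1.11 ± 0.73, 0.307). Against Sham it passed the count filter only through the 5/6 Nx-HPi-Lp mice. Ccl24, a Ccr3 ligand of macrophages, rose against Sham in 5/6 Nx-HPi-Lp (1.23 ± 0.32, adjusted p = 0.0125) and in 5/6 Nx-HPi-Hp (1.16 ± 0.24, 0.011). It had 3.25, 8.74, 5.06 and 4.05 in 5/6 Nx-HPi-Lp, 1.65, 2.45, 2.46 and 2.28 in Sham and 5.57, 4.52, 3.73 and 5.86 in 5/6 Nx-HPi-Hp, and the first call was lost without mouse 2 of 5/6 Nx-HPi-Lp, at 0.90, under the fold limit, and without the deepest pair (0.70, adjusted p = 0.0746). Ccl11, the eosinophil ligand eotaxin, had 8.43 ± 0.891 FPKM in 5/6 Nx-HPi-Lp, 6.57 ± 0.76 in Sham, 8.94 ± 3.18 in 5/6 Nx-HPi-Hp and 6.67 ± 2.37 in 5/6 Nx-LPi-Lp, and was called in no comparison.

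Gene order did not match the changes in full. On chromosome 11, Ccl11 (82057823 to 82062955, mm10) lies between Ccl7 and Ccl12, which were called against Sham, and its log2 fold change there was 0.33 ± 0.17 (adjusted p = 0.145). In a second group on that chromosome, Ccl9 and Ccl6 were called in all 3 comparisons while Ccl5, Ccl3 and Ccl4 beside them were called in none. On chromosome 9, Ccr1 and Ccr2 were called, while Ccr3, between Ccr1 and Ccr2, had at most 0.093 FPKM in any mouse and was not tested. On chromosome 8, Ccl17 was called against Sham while its neighbour Cx3cl1 was not.

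**Figure D5:**
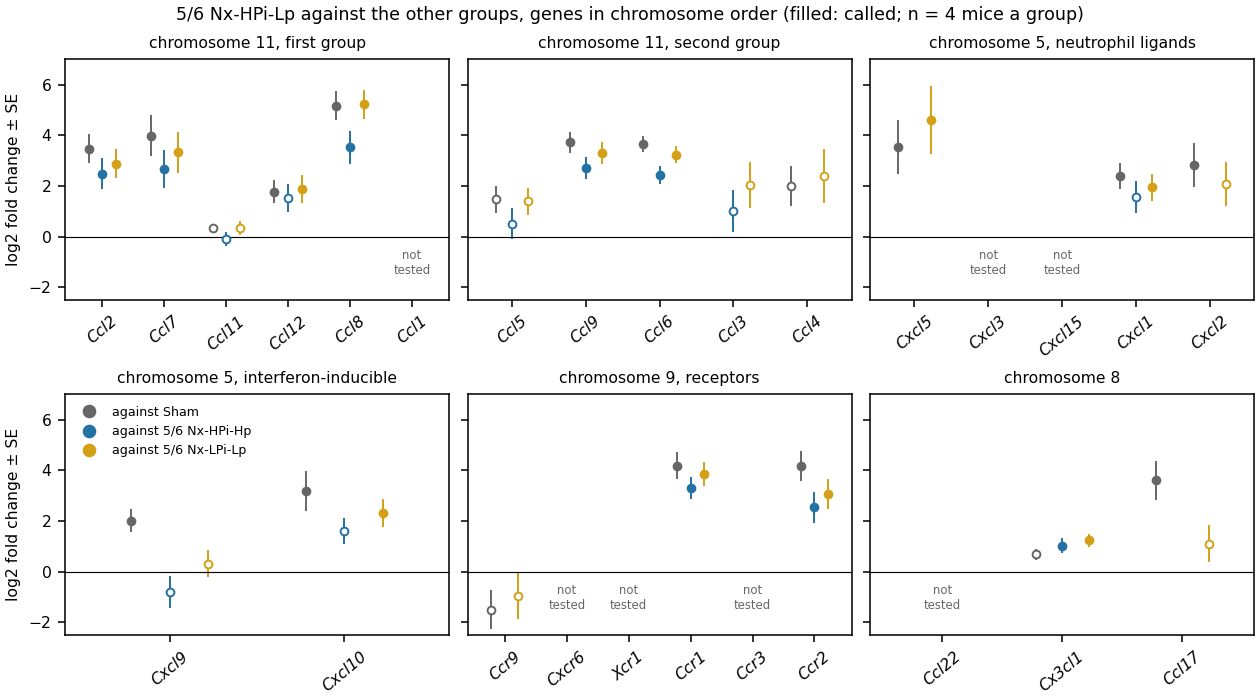
Log2 fold change ± SE of 5/6 Nx-HPi-Lp against each other group for 6 runs of neighbouring chemokine or receptor genes, in chromosome order but not to scale. Filled points were called and open points were not; Ccl11 at 0.33 against Sham stands between Ccl7 at 3.98 and Ccl12 at 1.78.

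Ccl27a, a ligand of Ccr10 known from skin, was the only member lower in all 3 comparisons. Mice of 5/6 Nx-HPi-Lp had 7.4, 2.84, 6.43 and 4.63 FPKM and the Sham mice 11.9, 9.55, 8.56 and 13.3. The other groups had 13, 18.9, 18.3 and 12.5 (5/6 Nx-HPi-Hp) and 12.5, 15.8, 12.4 and 13.3 (5/6 Nx-LPi-Lp). All 5/6 Nx-HPi-Lp mice lay below all others. The log2 fold change was -1.06 ± 0.28 (adjusted p = 0.0128), -1.56 ± 0.29 (0.0115) and -1.35 ± 0.27 (0.00949) against Sham, against 5/6 Nx-HPi-Hp and against 5/6 Nx-LPi-Lp. Against Sham it was -0.88 without the deepest pair, -0.83 without 5/6 Nx-HPi-Lp mouse 2, -0.99 without mouse 4 and -0.96 without Sham mouse 4, all inside the fold limit. Il11ra1, the receptor of interleukin 11, overlaps Ccl27a (chromosome 4, 41769467 to 41774247, minus strand, mm10) on the opposite strand and was lower too, with 45.9 to 71.0 FPKM in 5/6 Nx-HPi-Lp and 92.8 to 115 in Sham, 87.4 to 111 in 5/6 Nx-HPi-Hp and 76.3 to 103 in 5/6 Nx-LPi-Lp. As the strand setting of the counting is not given in the sources used here, reads of the overlap cannot be told apart. A scaffold copy of Ccl27a had 0.0992 to 1.26 FPKM in 5/6 Nx-HPi-Lp and 0.116 to 1.11 in Sham and was called in no comparison, as was Ccr10 (1.15 ± 0.628 against 1.08 ± 0.355). Ccl28, the mucosal Ccr10 ligand, had 0.0639 to 0.414 and 0.0152 to 0.124.

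Of the remaining homeostatic genes tested, none was called in any comparison. Ccr7, the receptor that takes dendritic cells and T cells to lymph nodes, had 0.36, 1.97, 0.716 and 0.393 FPKM in 5/6 Nx-HPi-Lp and 0.316, 0.338, 0.196 and 0.348 in Sham, which did not overlap (1.51 ± 0.59, adjusted p = 0.0636). Its ligand Ccl21a was counted almost only on a scaffold copy, at 6.11, 0, 1.6 and 4.83 FPKM in 5/6 Nx-HPi-Lp and 6.58, 0.312, 5.03 and 4.76 in Sham, and reads cannot be placed surely among the near-identical copies of Ccl21a, Ccl21b and Ccl21c. Ccl19, another Ccr7 ligand, had 0, 3, 6 and 79 counts in 5/6 Nx-HPi-Lp, nearly all in mouse 4, and 3 in Sham. Ccl25 had 0.492 ± 0.108 and 0.322 ± 0.0916, and its receptor Ccr9, found on thymocytes and gut T cells, 0.0646 ± 0.0395 and 0.186 ± 0.176 (-1.49 ± 0.77, adjusted p = 0.149). The 7 thymocyte markers were also low in 5/6 Nx-HPi-Lp, at 0.034 to 0.699 FPKM against 2.6 to 16.3 in Sham, with Ptcra and Rag2 at 0 counts, and their part in the Ccr9 values was not tested. Among untested members Ccr6 had 9, 82, 2 and 0 counts in 5/6 Nx-HPi-Lp, Cxcl17 0, 38, 0 and 0, and 6 members had no count in any library: Ccl1, Ccl20, Ccl26 and scaffold copies of Ccl21b, Ccl21c and Ccl27a. The other untested members were Ccl22, Ccl27b, Ccr4, Ccr8, Cxcr1, Xcl1, Xcr1, Ccl21b and the remaining Ccl19 and Ccl21 rows, most with means under 0.5 FPKM in every group.

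The groups with 5/6 Nx but without the combined diet had fewer calls. In 5/6 Nx-HPi-Hp against Sham, 8 of 33 tested members rose (9.41% of all genes) and none fell (2.75%). These were Ackr1, Ccl24, Ccl6, Ccl7, Ccl8, Ccl9, Ccr2 and Cxcl9. Ccl8 had the next largest change after Cxcl9, together with Ccr2, at 1.67 ± 0.49 (adjusted p = 0.03) and 1.67 ± 0.48 (0.0274). Ackr1 had 1.43 ± 0.32 (0.0129), Ccl7 1.32 ± 0.37 (0.0251), Ccl6 1.23 ± 0.23 (0.00957) and Ccl9 1.03 ± 0.23 (0.0125). In these 6 genes the 5/6 Nx-HPi-Hp means were between those of Sham and 5/6 Nx-HPi-Lp. Mouse 1 of 5/6 Nx-HPi-Hp had the highest macrophage marker sum of its group and was the highest for Ccl8, at 11.1 FPKM, and 4 members were called without it, as without Sham mouse 1 or Sham mouse 4. Ccl8 and Ccr2 were 2 of the 4 lost without it (0.98, adjusted p = 0.0886, and 1.32, 0.0764), the others being Ccl7 (1.15, 0.0665) and Ccl9 (0.82, 0.028, under the fold limit). Leaving out other single mice lost Ccl7 in 4 fits, Ccl8 in 4, Ccr2 in 4 and Ccl9 in 3, and all 4 genes were lost without Sham mouse 1 or 4.

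In 5/6 Nx-LPi-Lp against Sham, 2 of 37 tested members rose, Cxcl14 and Cxcl9 (8.79% of all genes), and none fell (2.08%). Ccl8 had 1.65 ± 0.324 and 1.67 ± 0.276 FPKM in 5/6 Nx-LPi-Lp and Sham, a log2 fold change of 0.00 ± 0.30. Cxcl13 had 1.38 ± 0.50 (adjusted p = 0.0607) and Ccr2 1.15 ± 0.41 (0.0589), neither of them called. Between the 5/6 Nx-HPi-Hp group and the 5/6 Nx-LPi-Lp group, edgeR called none of 33 tested members and no gene at all (0% higher and 0% lower). At an unadjusted p under 0.05 there were 6 members and 1420 genes in all, and DESeq2 called 76 genes there, 1 of them a member, Cxcl14. The smallest adjusted p of a member was 0.476.

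Genes that carry the signal of chemokine receptors inside the cell were listed apart, 23 in all. Of these, 13 rose in 5/6 Nx-HPi-Lp against Sham, 7 against 5/6 Nx-HPi-Hp and 11 against 5/6 Nx-LPi-Lp, and none fell. The median log2 fold change was 1.20, 0.89 and 0.91. Pik3r5, a subunit of PI3K gamma, had 3.53 ± 1.52 FPKM in 5/6 Nx-HPi-Lp and 0.407 ± 0.132 in Sham (3.08 ± 0.37 on the log2 scale, edgeR adjusted p = 1.86e-04). The kinase Lyn (2.35 ± 0.29, adjusted p = 2.20e-04) and the actin regulator Was (2.08 ± 0.32, adjusted p = 7.00e-04) followed. Among those not called against Sham, Gnb1 had 0.01 ± 0.10, Rac1 0.14 ± 0.10 and Grk2 0.10 ± 0.10.

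Of 19 genes of leukocyte capture and integrins, all tested against Sham, 10 rose and 2 fell. The 10 include Madcam1, which passed the count filter there only through its counts in 5/6 Nx-HPi-Lp. In the comparison with 5/6 Nx-HPi-Hp 7 of 18 rose and 1 fell, and against 5/6 Nx-LPi-Lp 8 of 18 rose and none fell. Jam3, a junction protein of vascular cells, fell from 20.5 ± 1.03 FPKM in Sham to 5.91 ± 1.4 in 5/6 Nx-HPi-Lp (-1.82 ± 0.16, adjusted p = 4.57e-05). Itgb2, the beta chain of leukocyte integrins, rose (2.87 ± 0.36, adjusted p = 2.22e-04), and Itgb1, the common beta chain of most cells, fell (-1.17 ± 0.15, adjusted p = 2.39e-04). Itgb1 was at 303 ± 23.4 FPKM in Sham, 138 ± 25.5 in 5/6 Nx-HPi-Lp, 120 ± 75.3 in 5/6 Nx-HPi-Hp and 140 ± 47.4 in 5/6 Nx-LPi-Lp. Its log2 fold change was 0.19 ± 0.38 against 5/6 Nx-HPi-Hp and -0.02 ± 0.25 against 5/6 Nx-LPi-Lp, not called in either. The endothelial adhesion genes split, with calls for Vcam1 (1.78 ± 0.31, adjusted p = 0.00135) and Sele (3.11 ± 0.71, adjusted p = 0.00596) and none for Icam1 (0.40 ± 0.21, adjusted p = 0.153).

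Of 14 chemoattractant genes outside the family names, 6 rose and 2 fell against Sham, 4 rose against 5/6 Nx-HPi-Hp and 6 against 5/6 Nx-LPi-Lp. In each comparison without 5/6 Nx-HPi-Lp only 12 passed the count filter, so that not all 14 would have passed without these mice. Fpr2 was near the floor elsewhere, at no more than 0.161 FPKM in Sham and 0.284 in any mouse outside 5/6 Nx-HPi-Lp. The formyl peptide receptor Fpr2 had 1.43 ± 0.374 FPKM in 5/6 Nx-HPi-Lp and 0.0994 ± 0.054 in Sham (3.78 ± 0.52, adjusted p = 3.96e-04), and the complement receptor C3ar1 5.68 ± 3.52 and 0.835 ± 0.0621 (2.74 ± 0.40, adjusted p = 5.54e-04). Rarres2, which encodes chemerin, fell from 51.6 ± 1.34 to 17.7 ± 2.61 (-1.58 ± 0.12, adjusted p = 2.71e-05), as did Ccrl2, a chemerin-binding receptor (-1.64 ± 0.28, adjusted p = 0.00126). The platelet chemokine Pf4 rose (1.39 ± 0.35, adjusted p = 0.0102) and Ppbp was not called (0.51 ± 0.61, adjusted p = 0.533) against Sham. In the comparison with 5/6 Nx-HPi-Hp it was Ppbp that rose (1.53 ± 0.42, 0.0404) while Pf4 was not called (1.00 ± 0.34, adjusted p = 0.0794), and against 5/6 Nx-LPi-Lp both rose (1.70 ± 0.36, adjusted p = 0.0127, for Pf4 and 2.13 ± 0.45, 0.0129, for Ppbp).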

How the data were processed

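RNA of 16 mouse aortas was sequenced by the study, 1 library per mouse and 4 mice per group. The authors aligned the reads to mm10 with HISAT2, counted them per gene with featureCounts 1.5.0-p3 and deposited raw counts for each library. Strand and multimapping options of the counting are not given in the sources used here, and the library protocol allows for directional or non-directional preparation. The authors also deposited FPKM made from these counts, with 1 scaling factor per library, and these were used for levels only. Library totals were 13659525 to 57276915 counts.

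Differences were tested on the counts with the quasi-likelihood test of edgeR 4.0.16 in R 4.3.3, with the default filter on low counts, TMM scaling and the 8 libraries of each pair of groups, and p-values were adjusted over all genes tested (15850 to 16513). Calls needed an adjusted p no higher than 0.05 together with a log2 fold change of 1 or more in size. Alternatives were RLE scaling, total counts, DESeq2 1.42.0, no count filter, limma 3.58.1 on log2(FPKM + 1) or log2(FPKM + 0.1) for genes with a mean of at least 0.5 FPKM, 1 fit of all 16 libraries, a replicate block, no fold limit, no mitochondrially encoded genes and each mouse left out. Thinning of all libraries to the lowest total and leaving out the deepest pair of 5/6 Nx-HPi-Lp libraries were chosen after seeing the data. The code was tested on simulated counts. No pair of replicates agreed within counting noise.

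Members and lists were chosen with earlier results of these data known. Named were all members called in any comparison, tested members of the receptor axes, the 3 highest members of each group and, of each list outside the family, the 3 genes with the smallest p against Sham. Gnb1, Rac1, Grk2, Vcam1, Sele, Icam1, Ccrl2, Pf4, Ppbp and untested members with uneven counts were named after their values were seen. Symbols and coordinates of the 66 members are those of the deposited tables. Promoters were RefSeq sequences found for 45 of 59 member symbols on chromosomes. Protein identity between members was not computed. The values of 1 member that meets this rule are not reported here, although the counts include it.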

Additional observations from a re-analysis of the deposited data

Results flagged for a closer look

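Cxcr2 stood out in single mice of both other groups with 5/6 Nx. In 5/6 Nx-HPi-Hp, mouse 1 had 0.368 FPKM and the other 3 mice 0. In 5/6 Nx-LPi-Lp, mouse 1 had 0.0547 FPKM, from 3 counts, and the other 3 mice 0. Each gap to the nearest mouse divided by the range of the group exceeded Dixon's 95% critical value for 4 samples. With 3 mice at 0 this ratio is 1 for any value above 0 in the other mouse, so that both flags say no more than that 1 mouse had counts. In all, 104 groups of 4 mice were examined over 26 genes, and chance alone flags about 1 in 20 groups.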

How the results depend on the processing

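Of 133 counts of called chemokine and receptor genes under an alternative, 113 stayed within 1.5 times the reported count, and none of 1420 values of single called genes changed direction. Of these values, 1248 were still called, among them 72 of 72 with RLE scaling, DESeq2 or no mitochondrial genes, 69 of 72 with total counts, 71 of 72 without the count filter, 70 of 72 with all 16 libraries in 1 fit, 67 of 69 after thinning, 59 of 70 with limma on log2(FPKM + 0.1), 48 of 70 with limma on log2(FPKM + 1), 54 of 72 with a replicate block, 40 of 61 without the deepest pair and 482 of 574 with 1 mouse left out. With no fold limit 72 of 72 were kept, which was fixed in advance because the same fit was used. Calls of genes that were not tested under a setting are left out of its total and not counted as lost. The cause of the losses was not tested.

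Against 5/6 Nx-HPi-Hp, 5/6 Nx-HPi-Lp had 16 calls, 8 without the deepest pair and 10 to 23 with 1 mouse left out. Against 5/6 Nx-LPi-Lp the 21 calls became 13 without the deepest pair. The 13 genes called higher in all 3 comparisons became 6 without that pair. 5/6 Nx-HPi-Hp against Sham had 8 calls, 3 with limma on log2(FPKM + 1) and 4 to 10 with 1 mouse left out. 5/6 Nx-LPi-Lp against Sham had 2, with 4 by DESeq2, 1 with limma on log2(FPKM + 1) and 1 to 3 with 1 mouse left out. For 5/6 Nx-HPi-Hp against 5/6 Nx-LPi-Lp, the 0 calls became 1 with DESeq2 and 1 without the count filter. Against Sham, 5/6 Nx-HPi-Lp had 25 calls, with 18 to 30 under other settings and 21 to 29 with 1 mouse left out.

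Mouse numbers recur in the groups but no label ties them to a shared litter or day. Deviations of same-numbered mice correlated at r of -0.201 to 0.409, and in no comparison were all 4 above 0.1. The 0.409 was number 4 in 5/6 Nx-HPi-Hp against 5/6 Nx-LPi-Lp. Such correlations cannot show whether same-numbered mice shared a litter or day, and the numbers are used here only to name mice. With the number as a replicate block, the counts were 23, 7 and 16 for 5/6 Nx-HPi-Lp against Sham, against 5/6 Nx-HPi-Hp and against 5/6 Nx-LPi-Lp, 6 and 4 for these last groups against Sham and 1 between them, and 6 genes were called higher in all 3 comparisons.

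Over all genes, the counts for 5/6 Nx-HPi-Lp were 3666, 1315 and 1931 against Sham, against 5/6 Nx-HPi-Hp and against 5/6 Nx-LPi-Lp. They were 2057, 783 and 1068 with limma on log2(FPKM + 1), and 7089, 2113 and 3262 with no fold limit. Against 5/6 Nx-HPi-Hp there were 2097 with DESeq2, 2011 with all libraries in 1 fit, 371 with the replicate block, 744 without the deepest pair and as few as 638 with 1 mouse left out. Against 5/6 Nx-LPi-Lp there were 1271 with the replicate block and 1278 without 5/6 Nx-HPi-Lp mouse 4. 5/6 Nx-HPi-Hp against Sham had 1932, with 878 by limma on log2(FPKM + 1), 4990 with no fold limit and 1091 to 3161 with 1 mouse left out. 5/6 Nx-LPi-Lp against Sham had 1748, with 870 and 5115 under the first and second of these settings. The count of 0 between the other groups with 5/6 Nx became 76 with DESeq2, 12 without the count filter and 10 with the replicate block.

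Scaling by total counts moved the median log2 fold change of all genes to -0.14 in 5/6 Nx-HPi-Lp, -0.19 in 5/6 Nx-HPi-Hp and -0.22 in 5/6 Nx-LPi-Lp against Sham. Members with few counts, such as Cxcl15, Ccl3 and Cxcr6, were untested in some or all comparisons. Cxcl3, also untested, was called higher in all 3 comparisons with DESeq2 and without the count filter.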

Other observations

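Markers of other cell types also differed between the groups, and their part in the chemokine values was not tested. Mast cell markers summed to 128 to 149.9 FPKM in 5/6 Nx-HPi-Lp and 5.57 to 27.7 in Sham, with 5 of 6 called higher, while 5/6 Nx-HPi-Hp had 56.7 to 335 and 5/6 Nx-LPi-Lp 32.2 to 153, and none was called against these groups. Adipocyte markers gave the same count of 5 of 6 against Sham, with sums of 1118 to 1868 against 127 to 348 FPKM, and 0 and 1 calls against the other groups with 5/6 Nx. Sympathetic neuron markers were uneven among the 5/6 Nx-HPi-Lp mice, at 592, 15.3, 94.8 and 480.3 FPKM, against 2.19 to 3.53 in Sham. Of the 6, 4 were tested there and all 4 were called higher. Only 3 passed the count filter in 5/6 Nx-HPi-Hp against Sham and 2 in 5/6 Nx-LPi-Lp against Sham. Not all of the 4 would thus have passed without the 5/6 Nx-HPi-Lp mice, where they were high. Mouse 2, the highest for most chemokine genes, was the lowest for this list. Dendritic cell markers summed to 6.52 to 14.6 FPKM in 5/6 Nx-HPi-Lp and 3.72 to 4.55 in Sham, with 3 of 6 called higher, and lymphatic endothelial markers to 25.8 to 46.1 and 8.22 to 14.1, with 3 of 5. Of the lymph node stroma list, 4 of 6 were tested against Sham, with 1 higher and 1 lower, and of the red cell and platelet list 2 of 6 were higher and 3 lower. The stroma gene called higher was Madcam1, which passed the count filter only through its counts in 5/6 Nx-HPi-Lp.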
